A study of Homo sapiens with 6 samples.

Results

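*GGT5* and 9 other genes of leukotriene and prostanoid synthesis or of the gamma-glutamyl transferase (GGT) family were described in MV4-11 cells with and without WNK463. They were 10 of the 20348 genes in the table. *GGT5* was chosen by its large fold change and small p-value in this same contrast, and *GGT1*, *GGT7*, *ALOX5*, *ALOX5AP*, *LTA4H*, *LTC4S*, *DPEP2*, *PTGS1* and *PTGS2* were added for their related function once results of the contrast were known. Their differences between the groups are therefore given as a description. The fit over all genes includes them, and its calls for them are counted once, beside the share of all genes called, and support nothing. MV4-11 is an established human acute myeloid leukemia line of myelomonocytic type, with a rearranged *KMT2A* gene and an internal tandem duplication in *FLT3*. The Control group had 3 samples of cells given a blank control for 48 h, and the WNK463 group had 3 samples of cells given 1 μM WNK463, an inhibitor of the WNK family of kinases, for the same 48 h. The series was made to look for transcripts behind the growth inhibition of these cells by the compound. Total counts per sample were 17411780, 15328483 and 17246723 in the Control group and 15824474, 16171235 and 14915745 in the WNK463 group.

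Leukotrienes and prostanoids are lipid mediators made from arachidonic acid, which phospholipases release from membranes and acyltransferases return to them. The lipoxygenase encoded by *ALOX5*, helped by the membrane protein FLAP (*ALOX5AP*), makes leukotriene A4, which *LTA4H* turns into the chemoattractant leukotriene B4 and *LTC4S* joins to glutathione as leukotriene C4. GGT enzymes remove glutamate from leukotriene C4 and from glutathione, and dipeptidases such as DPEP2 then give leukotriene E4, while the cyclooxygenases *PTGS1* and *PTGS2* open the branch to prostaglandins and thromboxane. Myeloid cells are among the main makers of leukotrienes.

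The myelomonocytic label was checked first against marker genes. All 10 genes of the list for this line passed the filter on low counts, among them *CD33* at 123 TPM (transcripts per 1000000, a level per transcript length), *FLT3* at 180 TPM, *HOXA9* at 62.6 TPM and *MEIS1* at 44.4 TPM in Control samples. The myeloid genes *MPO* and *ITGAM* were low, at 4.34 and 2.23 TPM, and their log2 fold changes were -2.50 (SE 0.23) and 1.25 (SE 0.13). Of these 10, 4 were higher and 5 lower with WNK463, in a contrast where 35.5% of all tested genes were higher and 35.3% lower. The 6 lymphoid genes, of which 0 passed the filter, summed to 0.738 TPM in the Control group and 1.70 TPM in the WNK463 group, with *CD79A* as the most abundant and *CD3D* and *MS4A1* at 0. The marker sum of the line itself was 2403, 2503 and 2577 TPM in Control samples and 1339, 1347 and 1371 TPM in WNK463 samples, and its most abundant gene was the lysozyme gene *LYZ*. *LYZ* alone accounted for the lower sum, at 1641, 1684 and 1765 TPM against 413, 407 and 434 TPM. The other 9 genes together were higher with WNK463, at 762, 819 and 812 TPM against 927, 941 and 937 TPM. This difference is on the TPM scale, where the median log2 fold change over all tested genes was also above 0, at 0.16. In the fit to counts, *SPI1*, among these 9, had a log2 fold change of 0.00 (SE 0.05) and *FLT3* was lower at -0.20 (SE 0.05). The 4 genes called higher are also among these 9.

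Markers of other myeloid cells also differed between the groups. The counts of higher and lower genes given for these lists stand beside 35.5% and 35.3% of all tested genes. The 10 macrophage genes summed to 6.22, 5.44 and 4.57 TPM in Control samples and 41.2, 44.4 and 39.0 TPM in WNK463 samples, with *C1QA* as the most abundant. Of these, 6 genes were tested and 4 were higher, while *CD163*, *MRC1* and *MSR1* had 3 counts or fewer in each group. The other 2 tested genes, *SPP1* and *MARCO*, went the other way and were not called. Their log2 fold changes were -1.18 (SE 0.65) and -0.27 (SE 0.35), and their groups overlapped. The 8 mast cell or basophil genes, led by *KIT*, summed to 14.1, 14.3 and 13.1 TPM against 25.5, 24.9 and 21.2 TPM, with 3 of 4 tested genes higher and *TPSAB1* and *CPA3* at 0. The other tested gene, *FCER1A*, went from 6.07 to 4.13 TPM and was not called, with a log2 fold change of -0.63 (SE 0.28). All WNK463 samples lay below all Control samples for it. The 6 eosinophil genes, led by *PRG2*, summed to 5.39, 4.24 and 4.56 TPM against 9.74, 9.04 and 9.94 TPM, with 3 of 3 tested genes higher and *CLC* and *IL5RA* at 0. *EPX*, which did not pass the filter, went the other way, from 9, 4 and 14 counts to 4, 2 and 2. The 7 megakaryocyte or platelet genes, led by *ITGA2B*, summed to 11.4, 10.5 and 9.08 TPM against 28.1, 29.3 and 28.3 TPM, with 1 of 3 tested genes higher and *PF4* at 0. The 6 neutrophil genes went from 36.0, 28.1 and 26.2 TPM to 17.6, 16.7 and 21.1 TPM, led by *CXCR2*, which was lower while *CAMP*, the other tested gene, was higher, and with *CEACAM8*, *LTF*, *MMP8* and *FCGR3B* at 0. The 7 stromal, endothelial and epithelial genes, of which only *KRT18* was tested and was lower, summed to between 12.8 and 14.2 TPM in Control samples and between 8.83 and 10.5 TPM in WNK463 samples, with *COL1A2*, *COL3A1* and *EPCAM* at 0. Which part these shifts had in the values below was not tested, and in bulk RNA a change in the number of cells of a kind and a change in the RNA of each cell cannot be told apart.

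*GGT5*, the transferase known for acting on leukotriene C4, differed most among the 10 genes. Its estimated counts were 169, 138 and 156 in Control samples and 2668, 2495 and 2317 in WNK463 samples. All WNK463 samples lay far above all Control samples, and within each group the samples lay close together. On the scale of counts per 1000000 with TMM library sizes (CPM), the level went from 9.76 ± 0.463 (SD, n = 3) to 151 ± 8.57 (SD, n = 3), a log2 fold change of 3.95 (SE 0.07). By that fold change, which chose it, it ranked 42 of 11973 tested genes. Its rank by CPM itself moved from 8938 in the Control group to 1367 in the WNK463 group. The deposited counts and TPM of *GGT5* imply a transcript length that varied between samples with a coefficient of variation of 16.6%, against a median of 2.47% over 9170 genes with at least 100 counts, so its TPM values carry this extra spread. The same coefficient was 22.9% for *PTGS2*, 12.6% for *DPEP2*, 8.77% for *PTGS1* and 6.01% for *GGT1*, and at most 2.78% for the other 5 genes. The implied lengths of *GGT1* and *PTGS1* were longer in all WNK463 samples than in all Control samples, so the TPM values, shares and orders of these genes below carry this too. For *GGT5* the ratio of the group means was 15.0 in TPM and 15.5 in CPM.

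*GGT1*, the family member that cleaves extracellular glutathione in most tissues, had counts of 916, 664 and 782 in Control samples and 838, 766 and 820 in WNK463 samples. These ranges overlapped. Its level was 49.7 ± 5.39 CPM in the Control group and 49.2 ± 4.10 CPM in the WNK463 group (SD, n = 3 per group), with a log2 fold change of -0.02 (SE 0.08) whose sign turned with scaling by total counts. *GGT7*, a more distant family member, had 72, 48 and 77 counts against 101, 95 and 96. It was somewhat higher in every WNK463 sample, with means of 4.12 ± 0.737 and 5.92 ± 0.342 CPM (SD, n = 3 per group) and a log2 fold change of 0.51 (SE 0.18). Of the other 5 family genes on the list, *GGT6*, *GGTLC1*, *GGTLC2* and *GGTLC3* were at 0 in all 6 samples. No values stood under the symbol *GGT2*, so it could not be analysed. A count of 0 allows up to 3 counts per library, or 0.172 to 0.201 CPM of raw totals, and this floor covers counting error only. Because *GGT2* and the *GGTLC* genes are near copies of *GGT1*, the split of reads among them is uncertain.

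The makeup of GGT transcripts therefore differed between the groups. Summed over *GGT5*, *GGT1* and *GGT7*, the level was 82.0 ± 6.74 TPM in the Control group and 235 ± 12.6 TPM in the WNK463 group (SD, n = 3 per group). *GGT5* made up 13.2%, 10.5% and 15.2% of this sum in Control samples and 67.2%, 68.7% and 68.4% in WNK463 samples. *GGT1* went the other way as a share, from 83.5% ± 2.80 to 29.8% ± 0.786 (SD, n = 3 per group), while its own TPM was 68.5 and 70.0. *GGT7* stayed a small share, at 3.53% and 2.03%.

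**Figure D1:**
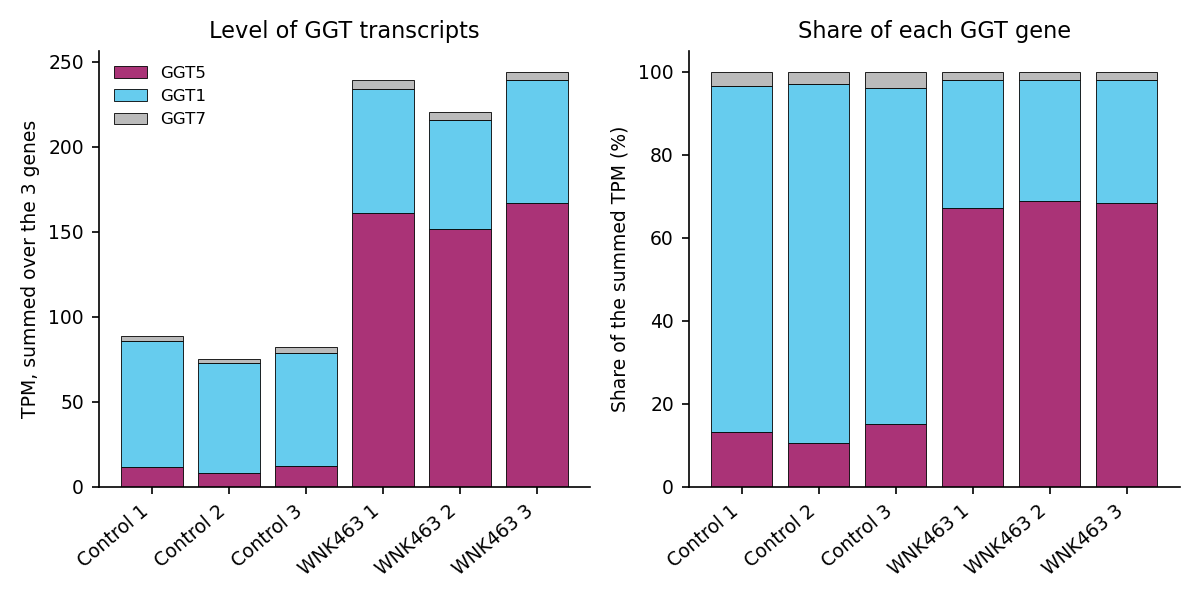
Stacked bars give the TPM of *GGT5*, *GGT1* and *GGT7* in each of the 6 samples (left, TPM) and each gene's share of their sum (right, percent). The *GGT1* part stays near 70 TPM in both groups, while the *GGT5* part is 10.7 TPM on average in Control samples and 160 TPM in WNK463 samples.

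*GGT5* and *GGT1* are neighbours on the long arm of chromosome 22 in build GRCh38, *GGT5* at chr22:24219654-24245142 on the minus strand and *GGT1* at chr22:24583750-24629005 on the plus strand. An exon of *GGT1* overlaps *SNRPD3*, a splicing factor gene with a log2 fold change of -0.89, so reads there may be shared. Around *GGT5*, 25 other genes lay within 500 kb on either side, a window chosen after the data had been seen. Of these, 15 were tested, of which 2 were higher (*SLC2A11* at a log2 fold change of 1.43 and *CABIN1* at 0.20), 9 were lower and 4 were not called, where 35.5% of all tested genes were higher and 35.3% lower. Their median log2 fold change was -0.40, against 0.02 over all tested genes, and the nearest tested gene, *SPECC1L*, had -0.28 with its start site 25.7 kb away. None of the 15 came near the value of *GGT5*, and they ranged from -1.52 in *ZNF70* to 1.43.

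**Figure D2:**
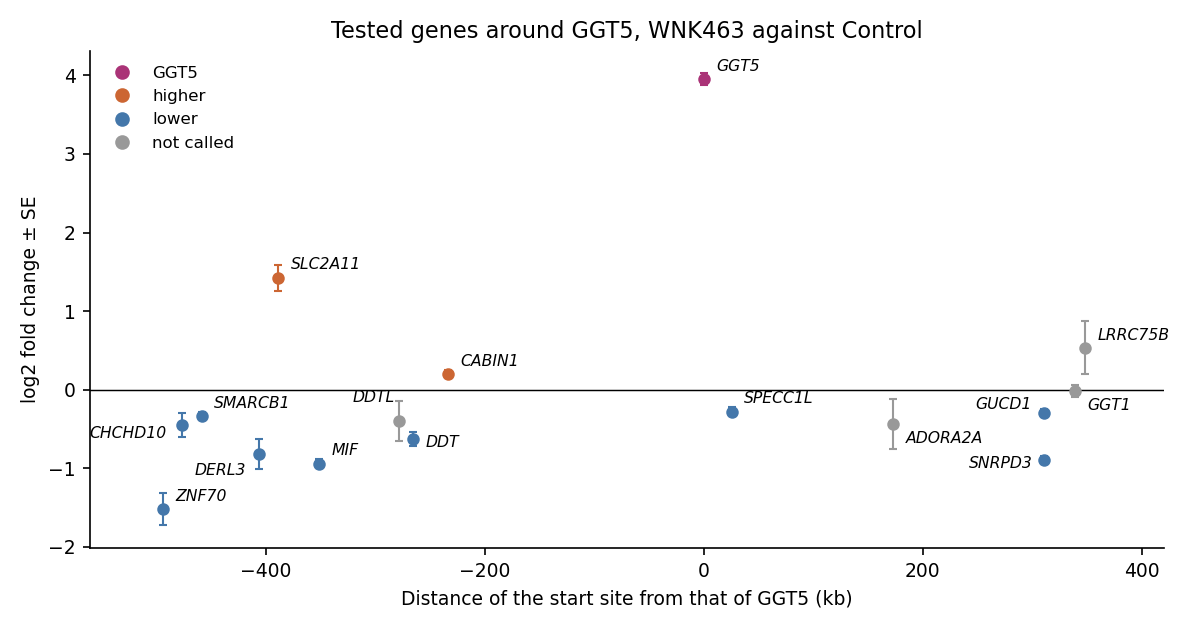
Each point is a tested gene, placed by the distance of its start site from that of *GGT5* in kb (horizontal) and its log2 fold change with WNK463 against Control (vertical, bars are the SE). *GGT5* stands alone at 3.95, and the other genes lie between -1.52 and 1.43.

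The genes closest to *GGT5* in their pattern were sought by the root mean square difference of centred log2 CPM over the 6 samples, among 11972 other tested genes. The nearest was *PTPRK*, a receptor tyrosine phosphatase gene, with a difference of 0.113, which went from 0.462 ± 0.0747 to 8.35 ± 1.23 CPM (SD, n = 3 per group). Next came *CMKLR1*, the receptor for the chemoattractant chemerin, at 0.149, which went from 1.24 ± 0.256 to 19.3 ± 2.05 CPM (SD, n = 3 per group). *ARHGAP31*, *H2BC21* and *ZFYVE28* followed at 0.186, 0.201 and 0.264. All 5 had lower WNK463 levels than *GGT5*, between 5.28 and 27.9 CPM.

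At the start of the leukotriene branch, *ALOX5* RNA was scarce. It had 3, 2 and 1 counts in Control samples and 9, 7 and 7 in WNK463 samples, and it did not pass the filter on low counts. Every WNK463 sample was above every Control sample, but all values were small. The summed counts of 6 and 23 give a ratio of 3.68 after library size, with a 95% interval from 1.46 to 11.0 that covers counting error only. *ALOX5* lies at chr10:45374176-45446119 on the plus strand.

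*ALOX5AP*, whose product FLAP presents arachidonic acid to the lipoxygenase, was abundant and lower with WNK463. Its counts were 1022, 800 and 986 in Control samples and 718, 713 and 668 in WNK463 samples. All 3 WNK463 samples lay below all 3 Control samples, though by a modest margin. The means were 59.1 ± 3.79 and 42.5 ± 0.964 CPM (SD, n = 3 per group), a log2 fold change of -0.48 (SE 0.07).

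*LTA4H*, which makes leukotriene B4, had 303, 307 and 300 counts in Control samples and 299, 271 and 279 in WNK463 samples. The means were 19.3 ± 1.55 and 17.2 ± 1.26 CPM (SD, n = 3 per group), a log2 fold change of -0.16 (SE 0.10). The groups were just apart in CPM and overlapped in TPM, where the fold change turned its sign. Exons of *LTA4H* overlap antisense genes and those of *DPEP2* overlap *DUS2*; whether counting used the strand was not given in the sources used here, so these reads are uncertain too.

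*LTC4S*, the synthase of leukotriene C4, had counts of 315, 249 and 216 in Control samples and 354, 382 and 385 in WNK463 samples. The WNK463 samples were all higher, and Control replicate 3 was the lowest of the 6. The means were 16.5 ± 3.05 and 22.7 ± 1.66 CPM (SD, n = 3 per group), a log2 fold change of 0.46 (SE 0.11). *DPEP2*, a dipeptidase that acts after the GGT step, had 55, 65 and 57 counts against 141, 140 and 144. Its WNK463 counts were nearly equal to each other and all above the Control counts. The means were 3.76 ± 0.607 and 8.62 ± 0.534 CPM (SD, n = 3 per group), a log2 fold change of 1.20 (SE 0.16). The genes closest to *DPEP2* in pattern were *ST8SIA4*, a sialyltransferase gene, *OR2B11*, an olfactory receptor gene, and *HCST*, which encodes a signalling adaptor, with root mean square differences of 0.0554, 0.0702 and 0.0742 over the 6 samples.

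Promoter windows ran from 250 bases before to 50 bases after the RefSeq start site (GRCh38.p14). The set of windows used here held 7 of the 10 genes, namely *GGT1*, *GGT7*, *ALOX5AP*, *LTA4H*, *LTC4S*, *PTGS1* and *PTGS2*. It held none for *GGT5*, *ALOX5* and *DPEP2*, which are named only. The windows of *ALOX5AP* (chr13:30713235-30713534, plus strand) and *LTC4S* (chr5:179793736-179794035, plus strand) are shown because these neighbouring steps of the branch differed in direction and their windows share a motif. Capitals mark the PU.1 core (GAGGAAG) in both windows, the antioxidant response core (TGACNNNGC) in that of *ALOX5AP* and the GC box (GGGCGG) in that of *LTC4S*, each read on either strand.
ALOX5AP: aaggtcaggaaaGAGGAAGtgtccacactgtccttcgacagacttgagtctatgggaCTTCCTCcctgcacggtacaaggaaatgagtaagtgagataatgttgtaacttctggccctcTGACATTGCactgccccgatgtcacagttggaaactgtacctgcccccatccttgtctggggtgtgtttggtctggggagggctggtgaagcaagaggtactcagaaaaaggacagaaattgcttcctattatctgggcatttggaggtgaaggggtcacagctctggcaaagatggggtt
LTC4S: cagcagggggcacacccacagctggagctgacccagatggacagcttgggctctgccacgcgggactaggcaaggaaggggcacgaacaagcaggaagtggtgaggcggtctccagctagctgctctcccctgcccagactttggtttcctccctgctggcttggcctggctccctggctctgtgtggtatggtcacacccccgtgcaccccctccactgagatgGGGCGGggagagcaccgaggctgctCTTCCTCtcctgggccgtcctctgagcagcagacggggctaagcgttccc
The PU.1 core, named for a myeloid transcription factor, began at positions -238 and -193 from the start site of *ALOX5AP* and at position 0 of *LTC4S*, counting the first transcribed base as 0. It occurred in 2 of the 7 windows and in 13.6% of 35116 promoter windows. The antioxidant response core began at -131 in *ALOX5AP*, and the GC box at -25 in *LTC4S*. *SPI1*, which encodes PU.1, was at 297 TPM in Control samples and 339 TPM in WNK463 samples, where all WNK463 samples were higher. On the scale of CPM the groups overlapped, at 218 and 218, with a log2 fold change of 0.00 (SE 0.05), so the 2 scales do not agree on a difference. A match of letters describes the window only.

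Of the cyclooxygenases, *PTGS1* was by far the more abundant. Its counts were 546, 387 and 480 in Control samples and 734, 746 and 720 in WNK463 samples. All WNK463 samples were higher, and their spread was narrow. The means were 29.7 ± 3.37 and 44.6 ± 1.31 CPM (SD, n = 3 per group), a log2 fold change of 0.58 (SE 0.08). *PTGS2*, the inducible cyclooxygenase, had 16, 10 and 11 counts against 16, 27 and 11. The groups overlapped, and only WNK463 replicate 2 stood above the rest. Its summed counts of 37 and 54 give a ratio of 1.40 with a 95% counting interval from 0.904 to 2.19. That interval includes equal levels, and it covers counting error only, not the spread between samples.

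The windows of this pair are shown because the genes encode the same reaction and differed widely in level. That of *PTGS1* is chr9:122370283-122370582 on the plus strand and that of *PTGS2* is chr1:186680374-186680673 on the minus strand. Capitals mark the TATA box (TATAAA) in both and, in *PTGS1*, the antioxidant response core and the GC box.
PTGS1: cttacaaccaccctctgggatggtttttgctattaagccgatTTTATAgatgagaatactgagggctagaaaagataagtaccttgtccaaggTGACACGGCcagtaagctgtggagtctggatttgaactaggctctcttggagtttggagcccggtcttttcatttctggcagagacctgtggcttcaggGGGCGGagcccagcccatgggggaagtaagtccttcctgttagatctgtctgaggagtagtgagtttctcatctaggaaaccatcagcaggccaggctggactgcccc
PTGS2: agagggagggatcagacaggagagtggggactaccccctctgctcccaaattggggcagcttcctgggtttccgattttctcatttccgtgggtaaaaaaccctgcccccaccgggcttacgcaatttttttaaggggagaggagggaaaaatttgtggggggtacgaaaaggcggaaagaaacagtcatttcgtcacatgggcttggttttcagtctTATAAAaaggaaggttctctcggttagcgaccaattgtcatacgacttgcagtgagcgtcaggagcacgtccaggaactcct
The TATA box began 32 bases before the start site in *PTGS2*, at position -32, and at position -208 in *PTGS1*, where it lies on the opposite strand. It was present in 2 of the 7 windows and in 11.5% of all 35116. The antioxidant response core of *PTGS1* began at -157, and it was found in 2 of the 7 windows and in 13.3% of all. The GC box of *PTGS1* began at -58. This motif was in 3 of the 7, with *GGT7* (chr20:34872807-34873106, minus strand) holding 2 copies, and in 45.0% of all. The E-box (CACGTG), the CRE (TGACGTCA) and the AP-1 site (TGANTCA) were in 0 of the 7 windows, against 7.3%, 1.8% and 7.7% of all.

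**Figure D3:**
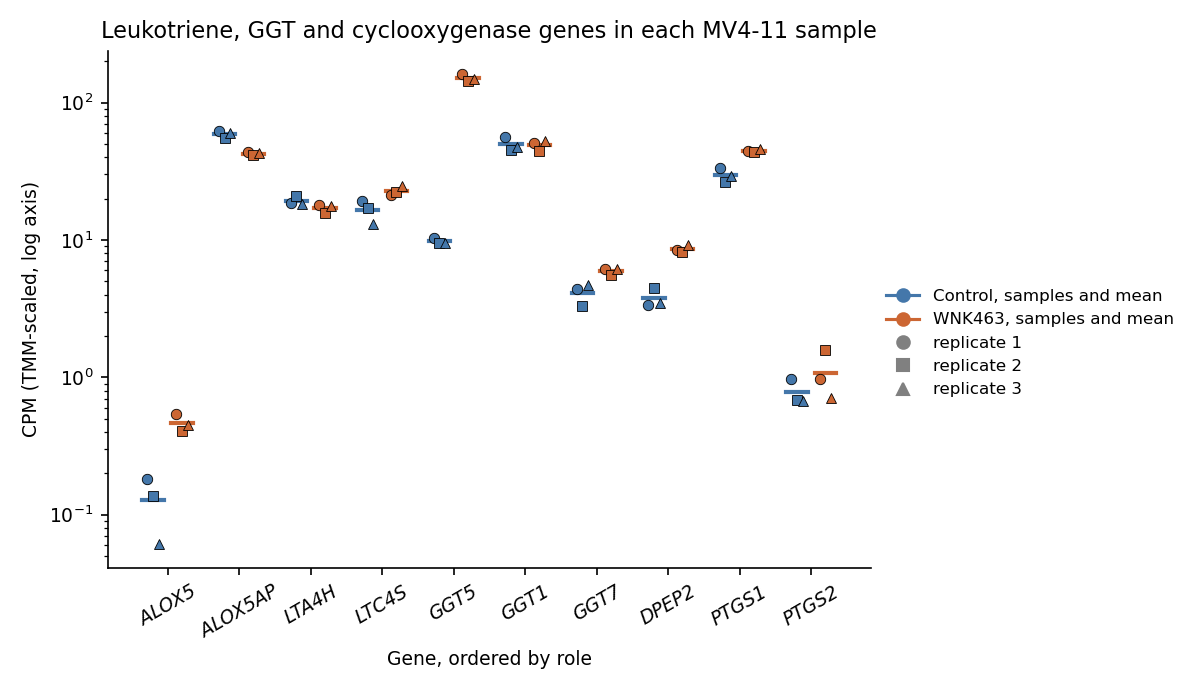
Points give the CPM of each of the 10 genes in each sample on a log axis, by group (colour) and replicate (shape), and bars give the group means. *GGT5* goes from 9.76 to 151 CPM, *ALOX5AP* is lower with WNK463, and *GGT1* and *PTGS2* overlap between the groups.

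Ordered by mean TPM, the Control samples had *ALOX5AP* at the top with 126, then *GGT1* (68.5), *LTC4S* (39.2), *LTA4H* (17.0), *PTGS1* (16.5), *GGT5* (10.7), *DPEP2* (5.50), *GGT7* (2.90), *PTGS2* (0.480) and *ALOX5* (0.0933). *LTA4H* and *PTGS1* overlapped in range, between 16.0 and 18.6 TPM and between 14.2 and 18.1 TPM, so their order is not settled. In the WNK463 samples *GGT5* led with 160, followed by *ALOX5AP* (104), *GGT1* (70.0), *LTC4S* (61.8), *PTGS1* (24.5), *LTA4H* (17.4), *DPEP2* (12.4), *GGT7* (4.76), *PTGS2* (0.614) and *ALOX5* (0.406). *GGT1* and *LTC4S* overlapped there, as did *PTGS2* and *ALOX5*. By mean TPM, *GGT5* thus moved from rank 6 to rank 1, and the means of the others kept their order apart from *PTGS1* and *LTA4H*. By mean CPM *GGT5* also went from rank 6 to rank 1, but the order of the others differed. *ALOX5AP* went from rank 1 (59.1 CPM) to rank 4 (42.5 CPM), below *GGT1* (49.2 CPM) and *PTGS1* (44.6 CPM). The mean of *LTC4S* passed that of *LTA4H*, and the mean of *DPEP2* passed that of *GGT7*. Both pairs overlapped in CPM in Control samples, so their order there is not settled. CPM is not a level per transcript length, and by mean TPM *LTC4S* and *DPEP2* were the higher of each pair in both groups.

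For reading these differences, the background of the contrast was broad. Of the 10 genes, 9 passed the filter, of which 5 were higher, 1 was lower and 3 were not called at an adjusted p below 0.05, where 35.5% of 11973 tested genes were higher and 35.3% lower. With a 2-fold limit 2 were higher (*GGT5* and *DPEP2*) and 0 lower, against 9.62% and 5.55%. The samples of the groups did not overlap in CPM for 7 of the 9, against 73.5% of all tested genes. As results of this contrast chose the genes, nothing is read from these counts. The call of *GGT7* was lost without Control replicate 2, where its log2 fold change was 0.37, and without WNK463 replicate 1 or 3, where it was 0.49.

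Beyond these genes, 90 genes of the surrounding pathways were set out in 8 lists, and 89 of them had values. Of these, 54 passed the filter, of which 18 rose, 17 fell and 19 were not called, with a median log2 fold change of -0.03 against 0.02 over all genes. Over all tested genes 35.5% rose and 35.3% fell, close to the shares in these lists. With the 2-fold limit, 5 rose and 4 fell, against 9.62% and 5.55% of all. The groups did not overlap for 37 of the 54, against 73.5% of all, and 15 genes were at 0 in all samples. Those under the 2-fold limit that are named below were picked after their values were seen, apart from the most abundant of each list, and other genes of the lists go unnamed. Exons of *PLA2G4C*, *ACSL5*, *MGST2*, *PRXL2B*, *CBR1*, *GCLC*, *SLC7A11*, *GGCT* and *OPLAH* overlap other annotated genes, so part of their reads is uncertain. Fold changes on log2(TPM + 1) understate those of low genes, with -1.77 for *ACSL5*, 0.64 for *PLA2G4C* and -0.42 for *ANPEP*, all still called. All p-values below are from the edgeR quasi-likelihood test, adjusted over all tested genes, and in each gene given with one all 3 WNK463 samples lay on the same side of all 3 Control samples.

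Genes that release or return arachidonic acid moved both ways, with 8 of 17 tested genes higher and 5 lower. The cytosolic phospholipase A2 gene *PLA2G4A*, which encodes the main supplier of arachidonic acid for eicosanoids, rose from 19.7 ± 3.22 to 35.4 ± 3.33 CPM (SD, n = 3 per group), a log2 fold change of 0.85 (SE 0.11, edgeR adjusted p = 1.05e-06). It was picked after its values were seen. Of the 5 other genes of the list that rose by less than 2-fold, only *ACSL4* is named below. Its log2 fold change was 0.45 (SE 0.05), and its exons overlap another annotated gene, *KCNE5*. *PLA2G4B*, a related phospholipase gene, went from 52, 82 and 23 counts to 177, 131 and 154, a log2 fold change of 1.48 (SE 0.28, edgeR adjusted p = 0.000142). Its exons overlap 2 other genes, so part of these reads is uncertain. *PLA2G4C* went from 7, 7 and 6 counts to 12, 31 and 14, a log2 fold change of 1.43 (SE 0.45, edgeR adjusted p = 0.00938). WNK463 replicate 2 decided that call, which was lost without it at a log2 fold change of 0.92. *ACSL5*, a long-chain acyl-CoA synthetase gene, fell from 159, 158 and 149 counts to 32, 21 and 17, a log2 fold change of -2.79 (SE 0.21, edgeR adjusted p = 1.55e-09). This was the farthest change among the 54 tested pathway genes. *LPCAT1*, a lysophospholipid acyltransferase gene with the highest TPM of its list in Control samples, fell from 242 ± 9.44 to 135 ± 3.52 CPM (SD, n = 3 per group), a log2 fold change of -0.84 (SE 0.05, edgeR adjusted p = 6.28e-11). In WNK463 samples its mean of 72.7 TPM was below those of *ACSL4* (108 TPM) and *ACSL1* (88.5 TPM).

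Of 11 genes for the other synthesis, export and breakdown steps of leukotrienes, 4 passed the filter and 0 of these were called. That count depends on the scaling, as the values of *MGST2* and *ABCC1* show. *MGST2*, which encodes a second enzyme able to make leukotriene C4, was at 56.1 ± 1.94 and 55.8 ± 1.90 CPM (SD, n = 3 per group), and its log2 fold change of -0.01 (SE 0.06) turned positive and passed the threshold with scaling by total counts, at 0.15, and in the limma fits on TPM, at 0.19. *ABCC1*, an exporter of leukotriene C4, had a log2 fold change of 0.14 (SE 0.07) that missed the threshold and passed it under those same settings, at 0.29 with total counts and between 0.31 and 0.34 with TPM. *CYP4F3*, which encodes the hydroxylase that inactivates leukotriene B4, stayed below the filter with 0, 5 and 0 counts against 12, 14 and 9, a ratio of 6.71 with a 95% counting interval from 2.62 to 22.0. *DPEP1*, *CYP4F11* and *CYP4F12* were at 0 in all samples. Among other lipoxygenases, *ALOX12*, the platelet-type enzyme, fell from 6.39 ± 0.789 to 3.17 ± 0.574 CPM (SD, n = 3 per group), a log2 fold change of -1.01 (SE 0.19, edgeR adjusted p = 0.000131). Antisense genes overlap its exons. *COTL1*, which encodes an actin-binding partner of the lipoxygenase, was abundant at 444 ± 5.60 and 450 ± 10.8 CPM (SD, n = 3 per group), with a log2 fold change of 0.02 (SE 0.04). It passed the threshold with total-count scaling, at 0.17, and with TPM.

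Of 6 tested receptors for leukotrienes and related lipids, 3 rose and 0 fell. *CYSLTR1*, the receptor for the cysteinyl leukotrienes, had 392, 342 and 549 counts in Control samples and 988, 1046 and 875 in WNK463 samples. Every WNK463 sample was well above the Control samples, with a log2 fold change of 1.12 (SE 0.10, edgeR adjusted p = 1.82e-08). The leukotriene B4 receptors *LTB4R* and *LTB4R2* had log2 fold changes of 0.49 (SE 0.08) and 0.36 (SE 0.12). These neighbouring genes overlap in their exons, so their reads cannot be fully told apart. *CYSLTR2* was low, at 0.665 and 0.932 CPM with overlapping groups, and *OXGR1* and *GPR17* were at 0.

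In the prostanoid branch after the cyclooxygenases, 6 of 8 tested genes fell and 1 rose, in a contrast where 35.3% of all tested genes fell and 35.5% rose. *TBXAS1*, the thromboxane synthase gene, fell from 129, 124 and 141 counts to 67, 65 and 67, a log2 fold change of -1.04 (SE 0.15, edgeR adjusted p = 9.32e-06). *PTGES3*, whose product p23 is a chaperone partner as well as a prostaglandin E synthase, fell from 727 ± 24.2 to 457 ± 14.5 CPM (SD, n = 3 per group), a log2 fold change of -0.67 (SE 0.05, edgeR adjusted p = 4.28e-10). *PTGES2* fell by 0.86 on the log2 scale (SE 0.07), and *PRXL2B*, *AKR1B1* and *CBR1*, reductases with prostaglandin substrates, had -0.62, -0.52 and -0.43. These 6 stayed lower under every alternative scaling tried. The gene that rose was *ABCC4*, a prostaglandin exporter gene, from 70.9 ± 2.97 to 105 ± 2.86 CPM (SD, n = 3 per group) and a log2 fold change of 0.57 (SE 0.05, edgeR adjusted p = 4.33e-08). *PTGES*, *HPGDS* and *HPGD*, which encode the inducible prostaglandin E synthase, the hematopoietic prostaglandin D synthase and the main prostaglandin-degrading enzyme, were at 0 in all samples.

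Prostanoid receptors were few, with 4 of 9 tested, 2 of them higher and 0 lower. *PTGER4*, a receptor for prostaglandin E2, rose from 81.3 ± 3.74 to 138 ± 5.46 CPM (SD, n = 3 per group), a log2 fold change of 0.76 (SE 0.05, edgeR adjusted p = 1.01e-09). *PTGER2*, another prostaglandin E2 receptor gene, was much lower at 1.42 ± 0.554 and 2.68 ± 0.768 CPM (SD, n = 3 per group), a log2 fold change of 0.91 (SE 0.33, edgeR adjusted p = 0.0188). That call was lost without Control replicate 1 and without WNK463 replicate 1 or 3, at log2 fold changes of 0.61, 0.71 and 0.88, and with limma on log2(TPM + 1) without a TPM filter, at 0.73.

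Glutathione is the partner of LTC4S and the main substrate of GGT enzymes, and all 13 genes of its synthesis and of the gamma-glutamyl cycle were tested. Of these, 4 rose and 5 fell. *SLC7A11*, the cystine importer gene, rose from 5.62 ± 0.309 to 17.1 ± 1.33 CPM (SD, n = 3 per group), a log2 fold change of 1.60 (SE 0.12, edgeR adjusted p = 1.50e-09). *GCLC*, the catalytic subunit gene of the rate-limiting ligase, rose from 18.1 ± 0.816 to 39.0 ± 1.88 CPM (SD, n = 3 per group), a log2 fold change of 1.11 (SE 0.08, edgeR adjusted p = 7.23e-10). Its partner subunit gene *GCLM* had 0.49 (SE 0.07), and the aminopeptidase gene *LAP3* had 0.16 (SE 0.05), whose call was lost without WNK463 replicate 2 at 0.13. *GSS*, which completes glutathione, had -0.16 (SE 0.06), a call lost with total-count scaling, without Control replicate 2 (-0.16) and without WNK463 replicate 2 (-0.12), and turned in sign with TPM. *GSR*, the glutathione reductase gene, had -0.47 (SE 0.08) and *GGCT*, the cyclotransferase gene, -0.48 (SE 0.08). *OPLAH*, the oxoprolinase gene, had -0.39 (SE 0.13), a call lost with total-count scaling (-0.23), with TPM, without Control replicate 1 (-0.28) and without WNK463 replicate 2 (-0.34). *ANPEP*, an aminopeptidase that can act on the dipeptide left by GGT, fell from 1.51 ± 0.136 to 0.547 ± 0.162 CPM (SD, n = 3 per group), a log2 fold change of -1.46 (SE 0.36, edgeR adjusted p = 0.00162). *CNDP2*, a dipeptidase gene with the highest TPM of the list, had -0.08 (SE 0.05) and was not called.

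**Figure D4:**
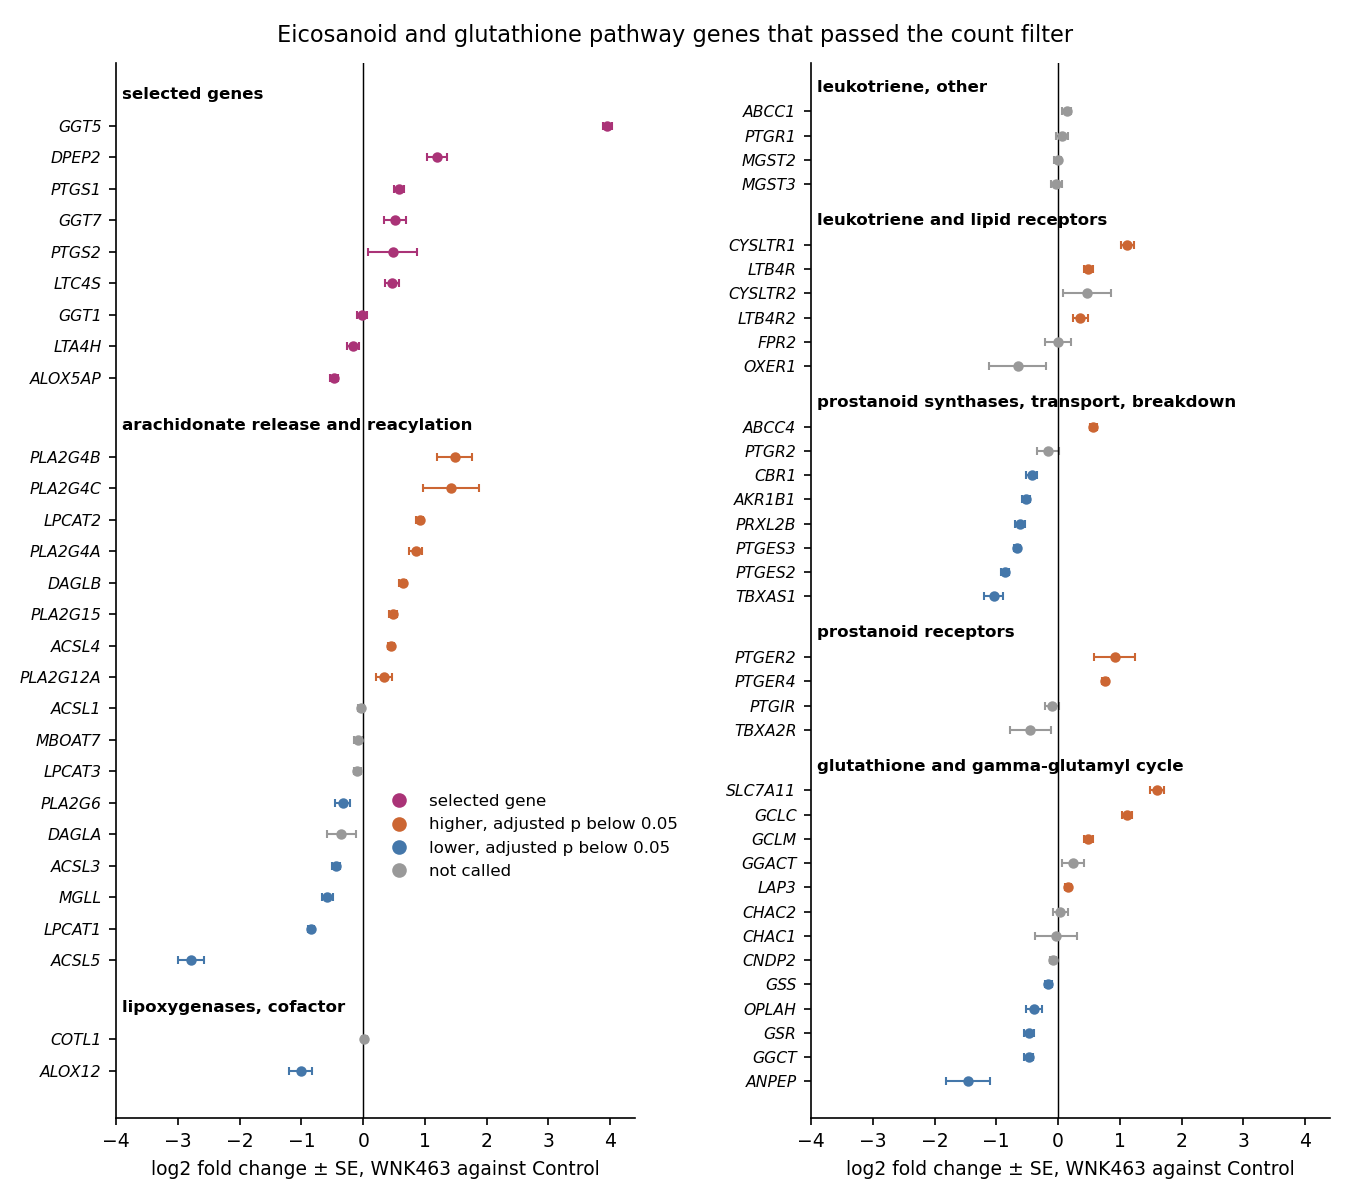
Points give the log2 fold change of each gene that passed the filter, with its SE as a bar, for the 9 selected genes and the 54 pathway genes by list. Colours mark the call of the pathway genes, while the selected genes share a colour whatever their call. Prostanoid synthase genes lie mostly below 0, while *GGT5* at 3.95 and *ACSL5* at -2.79 are the farthest on either side.

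Total-count scaling, without TMM factors, moved the median log2 fold change of all genes by 0.15, and with it the split of calls went from 4251 higher and 4222 lower to 5525 higher and 3123 lower. The sign turned with total-count scaling and with TPM for *GGT1*, *MGST2* and *CNDP2*, and with TPM for *LTA4H* and *GSS*. The labels do not say that the samples of a group were separate cultures, so the p-values measure the spread between these samples, which may be technical.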

How the data were processed

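RNA-seq was made from mRNA captured on beads in 3 Control and 3 WNK463 samples of MV4-11 cells. The authors deposited 1 table of 20348 genes with whole-number estimated counts per sample, and 62 zero counts stand beside a positive TPM. The deposited TPM values sum to 1000000 per sample. The submitters' processing notes name fastp, HISAT2, Bowtie2, StringTie, RSEM, DESeq2, edgeR and GRCh38, without their roles or settings. The authors' columns of group means, fold changes, p-values and adjusted p-values were not used. Counts were tested with edgeR 4.0.16 in R 4.3.3 (TMM, filterByExpr, quasi-likelihood test, Benjamini-Hochberg over 11973 genes), and the procedure was tested on simulated data. The SE of a log2 fold change is its size over the root of the F statistic. Replicates of a group differed by more than counting noise. Members and lists were chosen with earlier results of these data known. Named genes are the members, pathway genes past the 2-fold limit, the most abundant gene of each list and the closest genes in pattern to members past that limit. Others were named after their values were seen. Gene positions and overlaps are from GENCODE 29. Alternatives were DESeq2 1.42.0, total-count scaling, other count filters, a replicate block, limma 3.58.1 on log2(TPM + 1) and log2(TPM + 0.1), each sample left out, CPM for TPM, and the last 150 bases of each promoter window.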

Additional observations from a re-analysis of the deposited data

How the results depend on the processing

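Over the alternatives, 115 of 124 combinations of a selected gene and a setting kept the sign of the log2 fold change and 9 turned it. *GGT5* lay between 3.80 and 4.10, *DPEP2* between 1.04 and 1.35, *PTGS1* between 0.50 and 0.73, *LTC4S* between 0.31 and 0.67 and *ALOX5AP* between -0.54 and -0.28 (log2 fold changes). *GGT1* turned positive with total-count scaling (0.13), with limma on log2(TPM + 1), with or without a TPM filter (0.0321 each), on log2(TPM + 0.1) (0.0326), and spanned -0.0856 to 0.0687 with each sample left out. *LTA4H* turned to 0.0319 on log2(TPM + 1), with or without a filter, and 0.0337 on log2(TPM + 0.1). *GGT7* spanned 0.37 to 0.60 with each sample left out. *PTGS2* lay between 0.0985 and 0.70, and was 0.0999 without WNK463 replicate 2, in place of 0.48. *ALOX5* had a log2 ratio of 1.88 in CPM and 0.36 with limma on log2(TPM + 1) without a filter. *GGT5* made up 15.4% and 73.3% of summed GGT levels in CPM, in place of 13.0% and 68.1% in TPM. Of 31 other named genes, 388 of 428 combinations held and 17 turned the sign. In all, 18 combinations lost a call and 12 gained one, counting 3 and 4 that also turned the sign. *COTL1* spanned -0.00467 to 0.0304 with each sample left out. *MGST2* turned to 0.15 with total-count scaling, to 0.0102 where every sample needed at least 10 counts and to 0.19 in the limma fits, and spanned -0.0441 to 0.00656 with each sample left out. *CNDP2* turned to 0.0674 with total-count scaling and to 0.0358 and 0.0360 with limma on log2(TPM + 1) and log2(TPM + 0.1), and *GSS* to 0.0474 and 0.0481 in these. Genes called with a 2-fold limit fell from 1152 to 740 higher with at least 10 counts in every sample, and from 665 lower to 266, 356 and 268 with limma on log2(TPM + 1), log2(TPM + 0.1) and without a TPM filter. Those fits called 2643, 2634 and 2635 genes lower without a fold limit, in place of 4222, and 65.0%, 64.9% and 67.0% of their calls were higher, in place of 50.2%. Pathway genes past 2-fold were 8 higher and 2 lower with total-count scaling, 2 lower where every sample needed 10 counts or more, 1 lower with each limma fit, and 2 to 5 lower with each sample left out, in place of 5 and 4. The causes were not tested. With the replicate block 4223 genes were higher and 4175 lower, and no selected gene changed its call; the block rests on numbers alone, since same-numbered samples did not deviate together (correlations 0.02, -0.01 and -0.05). In the last 150 bases, 1 window held the TATA box, 1 the PU.1 core and 0 the antioxidant response core. The smallest counts, in *ALOX5* and *PTGS2*, limit what depth can show.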
